A study of Mus musculus with 4 samples.

Results

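Prememory B cells are the 578 cells that carry the name Prememory in the deposited annotation of germinal center (GC) B cells, out of 9804 annotated cells and 39009 barcodes in all. They were found by matching library and barcode between the cell table and the count matrices, which gave 145, 225, 93 and 115 cells in the libraries named WT, C, K and CK. Sets of 4 values below follow that order. The name was assigned by the authors through label transfer, a method that places each cell by its expression next to cells of an earlier data set, so any difference between named cells describes that sorting of cells and was given no test. The cells were compared with 2444 centrocytes, the light zone GC cells of the same annotation, and with 1216 unannotated cells that held at least 2 unique molecular identifiers (UMIs, counts of single captured RNAs) of Fcer2a, the low-affinity IgE receptor CD23 of follicular B cells, and less than 8% mitochondrial UMIs.

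Single-cell RNA sequencing was done on splenic B220+IgD- cells sorted 10 days after immunization with sheep red blood cells (SRBC), with 1 mouse and 1 library per genotype. All mice carried Cγ1-cre. WT mice had no floxed allele, C mice were Crebbp fl/+, K mice were Kmt2d fl/+ and CK mice carried both. Crebbp encodes a histone acetyltransferase and Kmt2d a histone methyltransferase, both of which act at enhancers. Cre is made from the Ighg1 locus, so an allele is deleted only in cells that have transcribed that locus, and the share of prememory cells with a deletion is not known. With 1 mouse per genotype, a genotype difference cannot be told apart from a difference between mice or libraries, and every interval given here is a 95% interval that covers counting error only.

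Memory precursors are GC B cells that leave the cycle of mutation and selection, and they are known to shut down the GC program around Bcl6 while they regain genes of resting and recirculating cells. CD38 is low on mouse GC B cells and high on memory and naive B cells, KLF2 drives expression of the egress receptor S1PR1, and CCR6 marks light zone cells that enter the memory pool. Unswitched IgM and switched IgG memory cells both form after immunization.

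The libraries held 33270825 to 39803865 UMIs each. Median depths of prememory cells were 3299, 2650, 2720 and 1991 UMIs, lower in each library than the 4741, 3498, 3811 and 2670 of centrocytes. Their median mitochondrial share was 5.24 to 6.07%, against 4.70 to 5.30% in centrocytes. Of all barcode sequences, 143 pairs were shared between libraries, 7 of which involved a prememory cell, and no barcode was prememory in both libraries of a pair. Scrublet, a doublet caller, marked 2 of the 578 prememory cells and 78 of the centrocytes, but 3.47, 6.68, 8.33 and 15.5% of the low-gene Fcer2a-positive cells described next, and no cell was removed in the values given here. Crebbp was at 62.5, 54.8, 40.5 and 41.3 CPM (the usual depth-scaled unit, here of the summed UMIs of a class) in prememory cells, and Kmt2d at 22.7, 24.3, 20.3 and 7.51 CPM. These reads come from 3′ ends and do not report whether an allele was deleted.

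The comparison cells were of 2 kinds. Annotated cells reach up to about 2500 detected genes, and 279 of the 1216 Fcer2a-positive unannotated cells lay at or above 2500 genes. These deeper cells carried the mitotic genes of a fixed G2M list at 3676 to 5434 CPM in sum and GC genes in 92.5 to 100% of cells (at least 2 UMIs of 11 GC genes, not thinned). The 937 Fcer2a-positive cells below 2500 genes had the G2M list at 172 to 229 CPM and such GC gene counts in 9.58 to 18.6% of cells. Prememory cells lay at 144 to 243 CPM for the G2M list and never reached 2500 genes. The results against Fcer2a-positive cells are therefore given for all 1216 cells and for the 937 below 2500 genes, which are called low-gene Fcer2a-positive cells.

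The levels of the 3 marker genes describe the annotated cells and are no independent check, since the name was given from expression. Klf2 (chr8:72319033-72321656, plus strand, GRCm38) was at 507, 430, 473 and 435 CPM in prememory cells, at 156, 184, 137 and 191 CPM in centrocytes and at 1479, 1514, 1417 and 1490 CPM in low-gene Fcer2a-positive cells. The 3 classes did not overlap, and prememory cells stood between the other two. The log2 ratios over centrocytes were 1.70, 1.22, 1.79 and 1.19, with intervals from 1.46 to 1.95, 0.99 to 1.46, 1.49 to 2.08 and 0.88 to 1.48.

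Cd38 (chr5:43868553-43912375, plus strand) was at 167, 181, 142 and 143 CPM in prememory cells and at 91.3, 69.5, 66.3 and 97.8 CPM in centrocytes. It was higher in prememory cells of every library, by log2 ratios of 0.87, 1.38, 1.10 and 0.54 whose lower bounds were 0.48, 1.01, 0.57 and 0.01, and so did not reach 2-fold in WT and CK. In low-gene Fcer2a-positive cells Cd38 was at 242, 227, 156 and 248 CPM, above the prememory level in each library.

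Ccr6 (chr17:8236043-8257141, plus strand) did not separate prememory cells from centrocytes. It was at 15.1, 15.2, 13.5 and 11.3 CPM, from 8, 10, 4 and 3 UMIs, against 15.9, 11.1, 8.39 and 7.01 CPM in centrocytes, and the interval of the ratio held 0 in all 4 libraries. Low-gene Fcer2a-positive cells had 53.7, 49.4, 23.5 and 48.7 CPM. Thus 2 of the 3 markers were higher in the annotated cells than in centrocytes by CPM, though Cd38 separated thinned cells in C alone. The third, Ccr6, was not detectably higher at this depth. The CPM of all 3 lay below that of low-gene Fcer2a-positive cells in each library.

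Across 6823 genes with at least 20 UMIs over both classes in every library, 234 (3.43%) were at least 2-fold higher in prememory cells than in centrocytes in all 4 libraries and 210 (3.08%) were at least 2-fold lower. Against all Fcer2a-positive cells, 37 of 4183 genes (0.885%) were higher and 118 (2.82%) lower. Against low-gene Fcer2a-positive cells, 102 of 3066 genes (3.33%) were higher and 50 (1.63%) lower. These counts describe the sorting by which the classes were named and support no statement on single genes.

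RNA of the GC program was low in prememory cells. A fixed list of 11 GC genes includes Bcl6, the repressor that keeps cells in the GC, the transcription factor Mef2b, the death receptor Fas, the confinement receptor S1pr2, the signalling regulator Rgs13, Gcsam, Mybl1, Basp1, Nuggc and Eaf2. These 10 genes were called lower than in centrocytes. The plot of levels shows them beside the genes of resting cells.

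**Figure D1:**
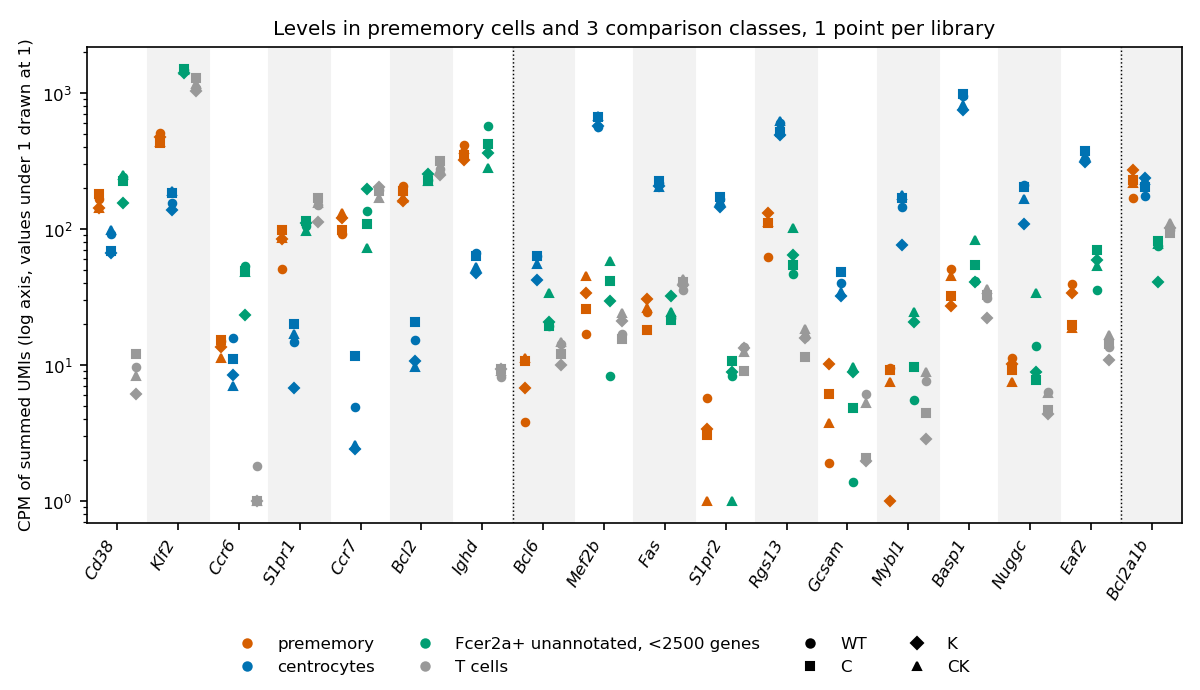
Summed UMIs of each class as CPM on a log axis, 1 point per library, for 7 genes of resting or recirculating cells, 10 GC genes and Bcl2a1b, with dotted lines between these 3 groups and values under 1 drawn at 1. For each of the 10 GC genes the 4 prememory points lie below all 4 centrocyte points, and for Bcl2a1b they overlap them.

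Basp1 was at 51.1, 31.9, 27.0 and 45.0 CPM in prememory cells against 949, 984, 754 and 816 CPM in centrocytes and 41.3, 54.2, 41.2 and 82.8 CPM in low-gene Fcer2a-positive cells. Mef2b was at 17.0, 25.9, 33.8 and 45.0 CPM against 563, 673, 569 and 673 CPM in centrocytes. The 4 prememory libraries lay far below every centrocyte library for both genes.

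S1pr2, which holds cells in the follicle center, was nearly absent. Its counts in prememory cells were 3, 2, 1 and 0 UMIs, where centrocytes had 167, 171, 145 and 161 CPM. In CK, where no UMI was found, the log2 ratio over centrocytes was at or below -3.84, taking 3 counts as the limit that a count of 0 allows. Fas was at 24.6, 18.3, 30.4 and 26.3 CPM, against 219, 225, 208 and 205 CPM in centrocytes and 22.02, 21.3, 32.3 and 24.3 CPM in low-gene Fcer2a-positive cells. In each library the Fas interval of prememory over low-gene Fcer2a-positive cells held 0.

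Bcl6 stood at 3.79, 10.6, 6.76 and 11.3 CPM in prememory cells, below the 19.3, 19.4, 20.6 and 34.1 CPM of low-gene Fcer2a-positive cells and the 62.9, 63.2, 42.3 and 55.7 CPM of centrocytes. Its 2 to 7 UMIs per library make the first of these differences uncertain, and the interval excluded 0 in WT alone. Rgs13 had the most RNA of the 10 named genes in prememory cells of every library. It was at 62.5, 111, 132 and 113 CPM in prememory cells, between the 46.8, 54.2, 64.7 and 102 CPM of low-gene Fcer2a-positive cells and the 602, 517, 495 and 622 CPM of centrocytes. The log2 ratios of Rgs13 over low-gene Fcer2a-positive cells were 0.42, 1.03, 1.03 and 0.14, and the interval excluded 0 in C (0.51 to 1.56) and K (0.24 to 1.85).

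The same was seen cell by cell. With each cell thinned to 1000 UMIs, at least 2 UMIs of the 11 GC genes were found in 1.38, 3.14, 4.30 and 4.42% of prememory cells, with intervals from 0.167 to 4.89%, 1.27 to 6.36%, 1.18 to 10.6% and 1.45 to 10.0%. Thinning left out 4 prememory cells in all, 2 in C and 2 in CK. Centrocytes thinned the same way had 82.5, 85.0, 76.8 and 81.4%. Reference T cells, unannotated barcodes with at least 3 UMIs of Cd3 genes and at most 1 of B-cell genes, had 2.03, 1.68, 1.77 and 2.63%, and these cells hold some Bcl6 (10.1 to 14.9 CPM) and Fas (35.4 to 43.1 CPM), so their share is not free RNA alone. Low-gene Fcer2a-positive cells had 1.54, 2.71, 2.29 and 6.82%. At this depth the T-cell share lay within the interval of prememory cells in each library. Without thinning the prememory shares were 19.3, 16, 20.4 and 13.9%, with T cells at 13.7, 6.53, 8.43 and 8.30%, below the prememory interval in C and K. Thinned to 2000 UMIs, prememory cells had 12.5, 11.7, 18.4 and 12.5% and T cells 4.97, 4.17, 3.90 and 5.88%, below the prememory interval in WT, C and K. Deeper sampling thus showed more GC gene RNA in prememory cells than in T cells in these libraries, at shares far below those of centrocytes. Low-gene Fcer2a-positive cells had 5.10, 11.9, 12.7 and 17.9% at 2000 UMIs, above the prememory share in C and CK. Their intervals overlapped those of prememory cells in each library, so this GC gene RNA was not particular to prememory cells.

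**Figure D2:**
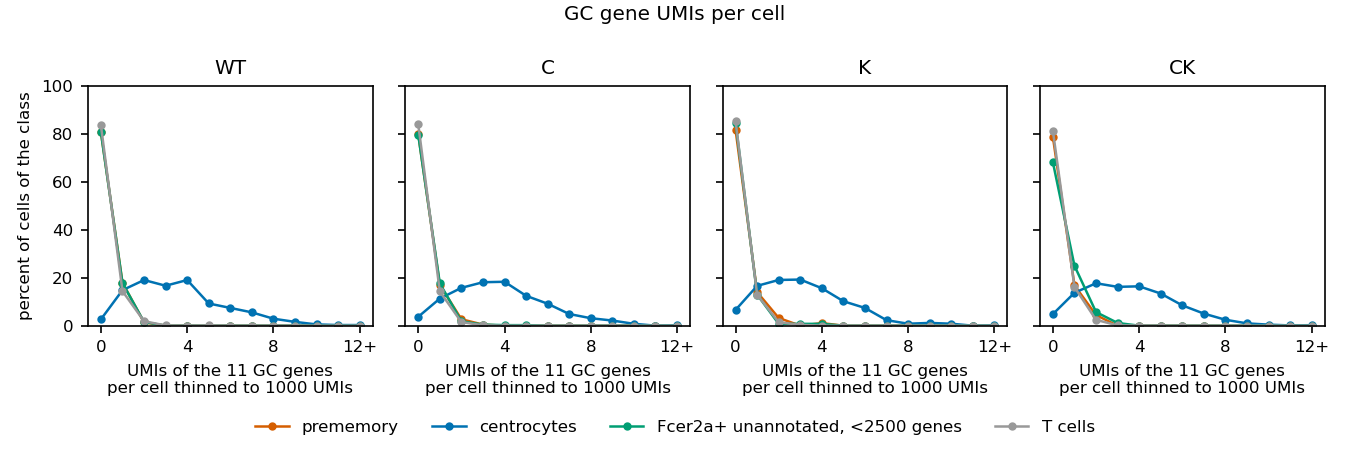
Percent of cells of each class by the number of UMIs of the 11 GC genes per cell, after each cell was thinned to 1000 UMIs, in 1 panel per library. Prememory cells (78.8 to 81.7% at 0 UMIs) lie with low-gene Fcer2a-positive cells and T cells, while centrocytes have 2.65 to 6.58% at 0.

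The fate of GC genes was also counted across the table. Genes at least 2-fold higher in centrocytes than in all Fcer2a-positive cells in every library numbered 30 of 7487 (0.401%), since the deeper Fcer2a-positive cells carry the GC program themselves. Of these 30, 1 was kept in prememory cells (3.33%), 0 were partly lost and 17 were lost (56.7%), where kept means less than 2-fold below centrocytes in every library and lost means at least 2-fold below centrocytes but less than 2-fold above the comparison cells. These words name levels only: a cell that had left the GC and a B cell that had never been in one would both count as lost, and the files do not tell them apart. The kept gene was Renbp. With the low-gene cells as comparison there were 117 GC genes of 6965 (1.68%), of which 8 were kept (6.84%, 2.998 to 13.03%), 0 partly lost (0 to 3.10%) and 55 lost (47.0%, 37.7 to 56.5%). The other 54 met neither rule in every library. The 117 were chosen as high in the same centrocyte sums, which by itself lowers their ratio, so that their log2 median of -2.09 over centrocytes (106 lower in all 4 libraries) is a description only.

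Among the 55 lost genes, those with the most RNA left were Rhoh and Sypl. Rhoh was at 151, 140, 142 and 191 CPM in prememory cells, against 841, 832, 714 and 769 CPM in centrocytes and 343, 365, 344 and 346 CPM in low-gene Fcer2a-positive cells, and so lay below both. Apoe, the apolipoprotein E gene, was at 30.3, 30.4, 122 and 33.8 CPM against 781, 1069, 843 and 882 CPM in centrocytes. Cd86, a costimulatory ligand for T cells, was at 15.1, 16.7, 16.9 and 18.8 CPM against 149, 131, 136 and 119 CPM. Rhoh and Sypl were picked from the lost genes after their values were seen.

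The 8 kept genes were Uchl3, Bcl2a1b, Glrx3, Bzw2, Tpi1, Tfdp1, Adk and Cenpv. The rule allows smaller differences: Bzw2 and Tpi1 had log2 ratios over centrocytes of -0.53 and -0.75 in K. In C these were 0.48 and 0.43, all with intervals off 0. Bcl2a1b, an anti-apoptotic relative of Bcl2, was at 168, 231, 270 and 218 CPM in prememory cells and 176, 203, 237 and 229 CPM in centrocytes, against 75.7, 81.3, 41.2 and 77.9 CPM in low-gene Fcer2a-positive cells. Its ratio over centrocytes held 0 within the interval in all 4 libraries, and its log2 ratio over low-gene Fcer2a-positive cells was 1.15 to 2.72. Reads of Bcl2a1b and its near-identical copies such as Bcl2a1d can be split by the counting, and Bcl2a1d was at 51.1, 51.7, 60.8 and 75.1 CPM in prememory cells, 41.0, 34.0, 35.2 and 38.4 CPM in centrocytes and 5.50, 10.6, 5.88 and 29.2 CPM in low-gene Fcer2a-positive cells. Tpi1 encodes a glycolytic enzyme and Tfdp1 a partner of E2F factors. Cd83, a light zone marker, met no rule: its 250, 271, 351 and 319 CPM lay below the 421, 466, 572 and 526 CPM of centrocytes and above the 135, 213, 215 and 268 CPM of low-gene Fcer2a-positive cells.

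By gene list, 4 of 19 tested GC transcription factors were lower than in centrocytes (Bcl6, Mef2b, Bach2 and Mybl1) and 2 were higher (Hhex and Irf4). Of 17 GC surface and confinement genes 6 were lower (Fas, S1pr2, Rgs13, Cd86, Gcsam and Slamf1) and 0 higher. Median log2 ratios of these lists were -0.55 and -0.998. Over all 6823 genes tested against centrocytes, 3.43% were higher and 3.08% lower, and the median was 0.03. These values stand beside each list count against centrocytes given below. Pax5 and Spib, factors of B-cell identity, were near the centrocyte level, while Bach2 was lower as given above. Pax5 was at 216, 161, 132 and 244 CPM in prememory cells and 174, 182, 137 and 182 CPM in centrocytes. Spib was at 193, 140, 193 and 199 CPM against 169, 146, 193 and 146 CPM.

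The memory and resting B list was higher in prememory cells than in centrocytes at its median and lower than in low-gene Fcer2a-positive cells. Of 16 tested members, 6 were higher than in centrocytes in all libraries, namely Klf2, S1pr1, Ccr7, Gpr183, Bcl2 and Ighd, and Zbtb20 was lower. The list median was 0.85 on the log2 scale, against 0.03 over all genes tested, of which 3.43% were higher and 3.08% lower. Against low-gene Fcer2a-positive cells none of 15 was higher and 5 were lower (among them Klf2, Klf3, Cd55 and Fcer2a, the last of which chose the comparison cells), with a median of -0.46 against 0.07 over all genes tested. Against all 1216 Fcer2a-positive cells the median of the gene means was 0.37, with 0 of 15 higher and 1 lower. By library the medians were 0.22, -0.018, 0.29 and -0.037, so the sign turned in WT and K only.

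Bcl2, the survival gene that GC cells repress, was at 208, 190, 162 and 169 CPM in prememory cells against 15.3, 20.7, 10.8 and 9.60 CPM in centrocytes, a log2 ratio of 3.77, 3.20, 3.91 and 4.14. Its level in low-gene Fcer2a-positive cells was 228, 226, 253 and 224 CPM. Bcl2 was thus near the level of these cells, and the interval of that ratio held 0 in WT, C and CK but not in K (-0.64, -1.18 to -0.11). Ccr7, the receptor that draws B cells to the T zone, was at 92.8, 98.9, 122 and 131 CPM against 4.92, 11.7, 2.397 and 2.58 CPM in centrocytes and 135, 109, 197 and 73.0 CPM in low-gene Fcer2a-positive cells.

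Egress and recirculation genes were uneven. S1pr1, the receptor for exit into blood, was at 51.1, 98.9, 84.5 and 86.3 CPM in prememory cells, 14.8, 20.2, 6.79 and 17.0 CPM in centrocytes and 106, 115, 112 and 97.4 CPM in low-gene Fcer2a-positive cells. S1pr1 lay between the other classes in every library. Itgb7, an integrin chain, was at 1.89, 7.60, 13.5 and 11.3 CPM against 64.7, 50.3, 73.5 and 48.7 CPM in low-gene Fcer2a-positive cells. Gpr183, the EBI2 receptor, was at 68.2, 66.9, 77.7 and 113 CPM, above the 7.38 to 13.3 CPM of centrocytes. Markers of memory B-cell subsets were sparse: Cd80 had 1.89, 3.04, 0 and 7.51 CPM, Nt5e (CD73) 1.89, 0, 0 and 0 CPM, and Pdcd1lg2 (PD-L2) 20.8, 12.2, 6.76 and 15.01 CPM. Nt5e was at 13.2 to 23.5 CPM in centrocytes.

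Of genes with at least 100 CPM in a class, those highest in prememory cells over centrocytes by the smallest ratio of the 4 libraries were Ccnd2, Bcl2, Plac8, S100a10, Fam129c, Mndal, Ifi203, Sub1, Ly6d and Mettl1. Ccnd2, which encodes the G1 cyclin D2, was at 305, 263, 328 and 327 CPM in prememory cells, 16.4, 12.2, 27.2 and 23.6 CPM in centrocytes and 111, 118, 121 and 92.5 CPM in low-gene Fcer2a-positive cells. Cyclin D2 is known to be off in GC B cells and induced by B-cell receptor signals. Its 4 prememory libraries lay above every library of both comparison classes. Plac8 was at 808, 646, 852 and 646 CPM against 36.1, 71.7, 51.1 and 42.1 CPM, and Ly6d, a surface protein of B cells, at 3126, 3078, 3538 and 2792 CPM against 440, 534, 501 and 449 CPM.

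Prememory cells were not an intermediate between centrocytes and resting cells for all genes. After these values had been seen, genes called against both classes were counted: 57 of 3052 genes (1.87%) were at least 2-fold higher in prememory cells than in centrocytes and than in low-gene Fcer2a-positive cells in all 4 libraries, and 5 (0.164%) were lower than both. By the smaller of their ratios the first 15 of the 57 with at least 100 CPM were Srm, Mettl1, Ppa1, Dctpp1, Nolc1, Hspd1, Noc2l, Ddx21, Grn, Ppp1r14b, Rrp15, Pa2g4, Rsl1d1, Mif and Lyar. Nolc1, Noc2l, Ddx21 and Rrp15 encode nucleolar proteins of ribosome assembly, Mettl1 a methyltransferase for transfer RNA, Srm spermidine synthase, and Hspd1 the mitochondrial chaperonin. No enrichment was tested.

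**Figure D3:**
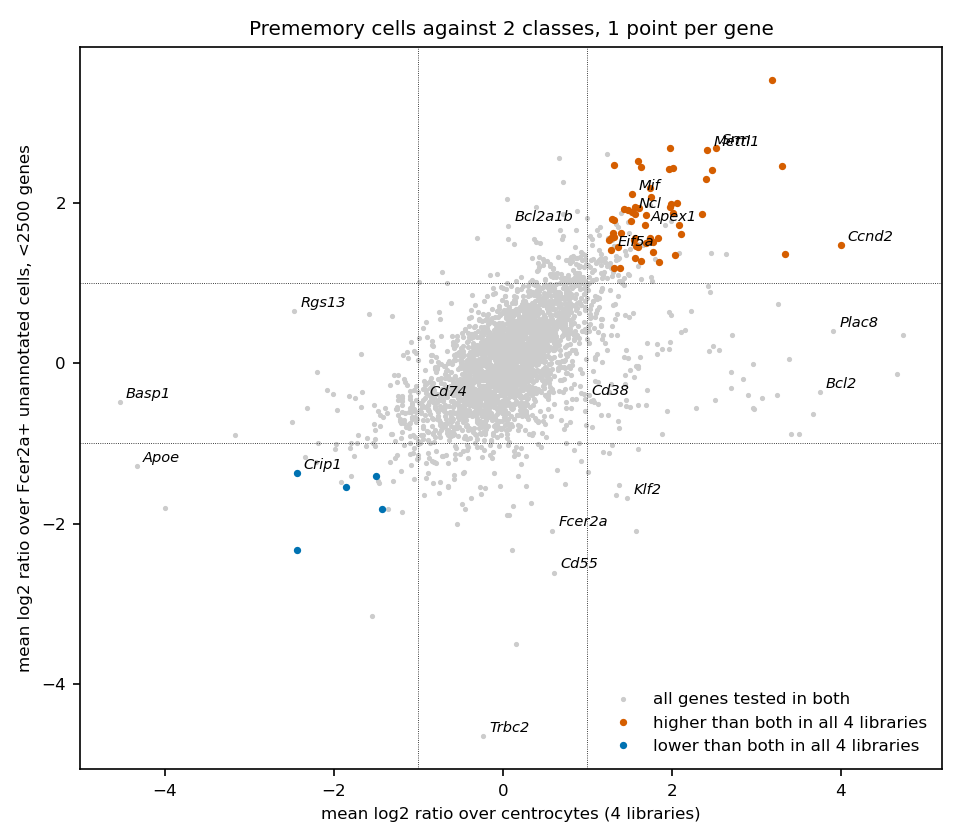
Mean log2 ratio of prememory cells over centrocytes (x) and over low-gene Fcer2a-positive cells (y), 1 point for each of 3052 genes tested in both, with dotted lines at 2-fold. The 57 genes higher than both lie at the upper right, Klf2 at the lower right, and Basp1 and Apoe at the far left.

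Srm was at 178, 249, 220 and 308 CPM in prememory cells, 25.1, 43.5, 49.1 and 50.9 CPM in centrocytes and 33.0, 33.9, 32.3 and 48.7 CPM in low-gene Fcer2a-positive cells. Its log2 ratios over centrocytes were 2.82, 2.52, 2.16 and 2.59, with the lowest lower bound at 1.70. Ncl, which encodes nucleolin, was at 1471, 1515, 1200 and 1535 CPM against 510, 412, 489 and 565 CPM in centrocytes and 428, 356, 329 and 443 CPM in low-gene Fcer2a-positive cells. For both genes the 4 prememory libraries lay above every library of the other classes. Eif5a, a translation factor, was at 1878, 2116, 1953 and 2222 CPM against 783, 784, 972 and 831 CPM in centrocytes.

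In single cells the difference was seen as well. After thinning to 1000 UMIs, Srm was found in 15.2, 21.97, 20.4 and 22.1% of prememory cells, 1.59, 3.31, 4.11 and 3.97% of centrocytes and 4.07, 4.43, 5.24 and 3.93% of T cells. Ncl was found in 65.5, 72.6, 64.5 and 72.6% of prememory cells and 33.6, 27.3, 33.6 and 37.2% of centrocytes. Klf2 was found in 35.2, 32.3, 34.4 and 33.6% of prememory cells, 10.6, 12.1, 10.5 and 12.6% of centrocytes and 73.7, 70.4, 66.4 and 75% of low-gene Fcer2a-positive cells. Klf2 was also found in 55.5, 60.3, 52.8 and 57.9% of T cells, which express it, so these shares have no clean background.

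Myc, a factor for growth genes that selected light zone cells induce, was at 62.5, 83.6, 40.5 and 60.1 CPM in prememory cells, 18.6, 16.5, 36.8 and 27.0 CPM in centrocytes and 33.0, 48.4, 29.4 and 48.7 CPM in low-gene Fcer2a-positive cells. The log2 ratios over centrocytes were 1.75, 2.35, 0.14 and 1.16, and the interval held 0 in K alone (-0.86 to 1.02). After thinning, Myc was found in 4.14, 5.83, 3.23 and 4.42% of prememory cells, 4.25, 2.49, 3.05 and 4.55% of low-gene Fcer2a-positive cells and 3.33, 4.18, 3.54 and 3.13% of T cells, so it was not particular to prememory cells. The deposited score for genes of Myc-expressing GC cells had medians of 0.098, 0.101, 0.090 and 0.098 in prememory cells and 0.001, -0.001, 0.009 and 0.007 in centrocytes. Its light zone score had prememory medians of 0.062 to 0.069 against 0.010 to 0.019 in centrocytes, and its dark zone score -0.134 to -0.119 against -0.097 to -0.085.

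MYC binds the letters CACGTG, which read the same on both strands. In the 250 bases before the first start site listed by RefSeq (GRCm38.p6), these letters occurred in 9 of the 49 genes with an entry among the 57 (18.4%, 8.76 to 32.0%), in 239 of 2432 genes tested in both comparisons (9.83%, 8.67 to 11.1%) and in 6.05% of the 27025 genes listed. The 9 genes were Hspd1, Surf2, Hdgf, Prmt3, Ppa1, Nme1, Phb, Apex1 and Timm8a1. The interval of the 49 genes overlapped that of the genes tested in both comparisons. The 57 genes were counted after the data were seen, and no enrichment was tested. A match is a description and not a binding site. The 30 bases around the match, 5′ to 3′ on the strand of the gene with the match in capitals, are shown for 4 genes because they were higher than both classes and differ in where the letters lie, 80, 140, 18 and 24 bases before the start site:
Hspd1, chr1:55088306-55088335, minus strand: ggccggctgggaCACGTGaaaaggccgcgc
Ppa1, chr10:61648469-61648498, plus strand: gccggcgcctgcCACGTGgcccaggttgcg
Nme1, chr11:93968273-93968302, minus strand: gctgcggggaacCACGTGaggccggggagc
Apex1, chr14:50924913-50924942, plus strand: gcgctccagaacCACGTGggggcggagccc

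Apex1, the endonuclease of base excision repair that acts after uracil removal, was at 288, 292, 226 and 345 CPM in prememory cells, 77.6, 81.2, 101 and 97.8 CPM in centrocytes and 68.8, 90.0, 76.4 and 117 CPM in low-gene Fcer2a-positive cells. Ung, the uracil glycosylase that opens this repair, was at 39.8, 47.1, 40.5 and 67.6 CPM against 10.4, 9.56, 13.6 and 12.2 CPM in centrocytes. They were the 2 higher members of a mutation and repair list of 10 tested genes, of which 3 were lower, Neil1 and Nuggc among them, with a median log2 ratio of -0.34. Nme1, a nucleoside diphosphate kinase, was at 805, 905, 912 and 882 CPM against 315, 314, 431 and 369 CPM in centrocytes.

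Genes of activation signals were higher in prememory cells than in centrocytes for 3 of 21 tested members of the light zone activation list (Egr3, Tnfaip3 and Irf4) and lower for 3 (Cd86, Slamf1 and Traf1), with a median of 0.32. Egr3, an early response gene of antigen receptor signals, was at 70.05, 76.0, 50.7 and 86.3 CPM against 16.4, 13.8, 22.4 and 22.2 CPM in centrocytes and 12.4, 43.6, 14.7 and 24.3 CPM in low-gene Fcer2a-positive cells. Nfkbie, an NF-κB inhibitor induced by the pathway, was at 100, 125, 115 and 146 CPM against 55.8, 52.6, 59.1 and 46.9 CPM. Irf4 was at 34.1, 47.1, 47.3 and 52.5 CPM against 12.6, 3.19, 6.39 and 8.12 CPM.

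Cycle genes were mixed. The G2M list of 20 genes had 0 of 7 tested members higher and 0 lower than in centrocytes, with a median of -1.001, and summed to 144, 202, 243 and 236 CPM in prememory cells. Of 17 tested S phase genes Ung was called higher and 0 lower, with a list median of 0.35, and Mcm3, a helicase subunit, was at 115, 105, 101 and 97.6 CPM against 58.0, 69.5, 69.1 and 83.8 CPM.

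Some MHC class II genes were lower than in centrocytes. Of 10 MHC class II genes, H2-Ab1, H2-Eb1 and H2-DMa were called lower than in centrocytes and 0 higher, with a list median of -0.97. Cd74, the invariant chain, was at 20198, 21684, 17770 and 21787 CPM in prememory cells, 37942, 41134, 37837 and 39011 CPM in centrocytes and 26891, 30278, 25405 and 29672 CPM in low-gene Fcer2a-positive cells, so that prememory cells were the lowest of the 3 classes. None of the 10 was called against low-gene Fcer2a-positive cells, where the median was -0.53. The B lineage list had a median of -0.42 against centrocytes, with Ly6d alone called, and Cd79a, a chain of the B-cell receptor, was at 3311, 2952, 3747 and 3213 CPM in prememory cells.

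The 5 genes lower than both classes were Crip1, Cyp4f18, March1, Ablim1 and Ppp1r18. Crip1 was at 271, 301, 291 and 349 CPM in prememory cells, 1625, 1664, 1959 and 1336 CPM in centrocytes and 691, 710, 1008 and 750 CPM in low-gene Fcer2a-positive cells. Gnai2, the G protein subunit that couples chemokine receptors, did not meet the call but was also lowest in prememory cells, at 454, 479, 561 and 454 CPM against 965 to 1130 CPM in centrocytes and 842 to 979 CPM in low-gene Fcer2a-positive cells.

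Markers of other cells were near background in prememory cells. The T-cell list of 13 genes summed to 148, 135, 182 and 154 CPM in prememory cells, 170 to 218 CPM in centrocytes and 10666 to 11241 CPM in T cells, with 2 to 5 of the 13 genes at 0 in prememory cells. In low-gene Fcer2a-positive cells it summed to 700, 1134, 1305 and 1899 CPM. The genes furthest below these cells include the T-cell gene Trbc2 (15.1, 7.60, 10.1 and 7.51 CPM against 133, 227, 267 and 433 CPM) and Ccl5 (3.79, 13.7, 0 and 18.8 CPM against 110, 163, 188 and 161 CPM). The part of T-cell RNA in the other values of that comparison was not tested. The myeloid list summed to 108 to 155 CPM, with 9 or 10 of 12 genes at 0, and the NK list to 7.57 to 30.03 CPM, with 5 or 6 of 9 at 0. The plasma cell list was at 644 to 858 CPM against 2188 to 2777 CPM in centrocytes, and Jchain, the joining chain of secreted antibody, was at 36.0, 28.9, 71.0 and 67.6 CPM against 725, 930, 704 and 679 CPM.

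Prememory cells were nearly all unswitched. Of the cells with at least 3 UMIs of heavy-chain constant genes, IgG led in 3 of 142, 2 of 213, 1 of 92 and 1 of 104 cells, which is 2.11, 0.939, 1.09 and 0.962%, with upper bounds of 6.05, 3.35, 5.91 and 5.24%. In centrocytes IgG led in 18.4, 28.9, 21.7 and 19.1%, with lower bounds of 14.5, 24.8, 18.4 and 16.5%. The intervals of the 2 classes did not overlap in any library. Low-gene Fcer2a-positive cells had 3.92, 2.31, 1.53 and 4.55%, and their intervals overlapped those of prememory cells. IgM or IgD led in 95.8, 98.6, 98.9 and 98.1% of prememory cells.

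Ighd RNA was plentiful in cells sorted as IgD-. It was at 416, 351, 324 and 390 CPM in prememory cells, 66.2, 63.2, 47.5 and 52.4 CPM in centrocytes and 568, 426, 364 and 282 CPM in low-gene Fcer2a-positive cells. Ighm was at 3767, 3071, 4366 and 3479 CPM in prememory cells, close to the 3793, 3328, 4298 and 3626 CPM of centrocytes. Ighg1, the locus that drives Cre, was at 36.0, 16.7, 27.0 and 11.3 CPM against 109, 196, 193 and 163 CPM in centrocytes.

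The light chain also differed. Lambda constant UMIs outnumbered kappa in 14.6, 17.9, 20.9 and 18.6% of prememory cells, with lower bounds of 9.26, 13.1, 13.1 and 11.9%. Centrocytes had 4.74, 5.85, 6.10 and 6.22%, with upper bounds of 7.38, 8.24, 8.30 and 7.97%, again with no overlap of intervals within a library. Low-gene Fcer2a-positive cells had 11.3, 15.5, 15.9 and 15.6%.

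**Figure D4:**
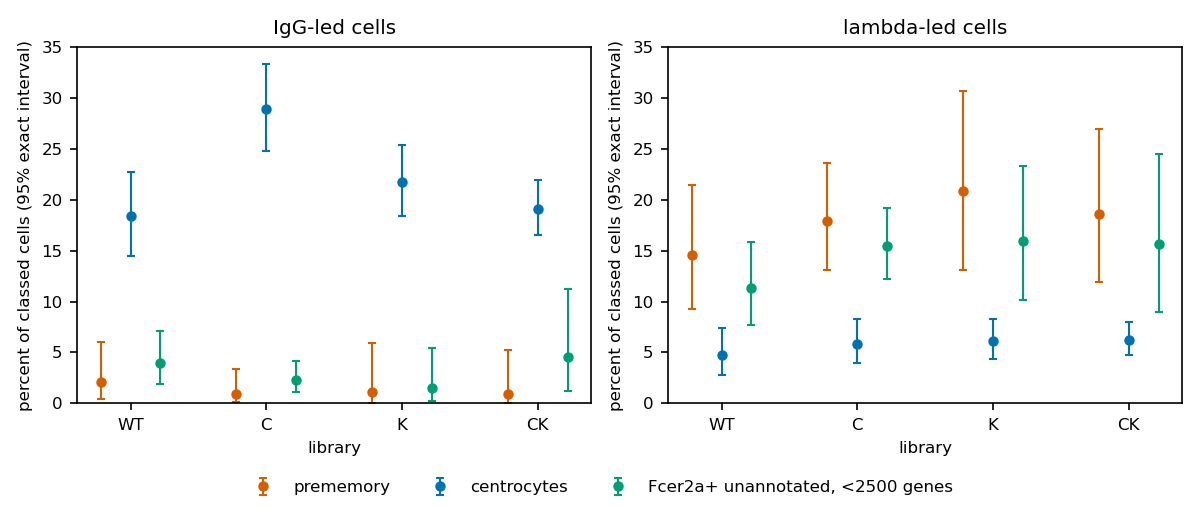
Percent of cells led by IgG (left, of cells with at least 3 heavy-chain constant UMIs) and by lambda (right, of cells with at least 3 light-chain constant UMIs) in each library, with 95% exact binomial intervals. In both panels prememory cells lie with low-gene Fcer2a-positive cells and apart from centrocytes, at 0.939 to 2.11% IgG against 18.4 to 28.9%.

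Among themselves the prememory cells were mostly of 1 group. In the deposited clustering 531 of the 578 were in cluster 8 and 47 in clusters 0 or 7. Summed over libraries, the cells in cluster 8 had Ccnd2 at 306 CPM, Srm at 242 CPM and Ncl at 1503 CPM, and the 47 others had 142, 61.0 and 579 CPM. The 47 cells had more Cd74 (26441 against 20239 CPM), and 8.70% of them (2.42 to 20.8%) had at least 2 GC gene UMIs after thinning, against 2.65% (1.46 to 4.41%) in cluster 8. Clusters were made from these same genes, so the differences are a description.

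In their own library, with 15 nearest neighbours per cell in 30 principal components of 2000 variable genes, prememory cells made up 42.9, 36.4, 22.3 and 18.7% of the neighbours of prememory cells, where they were 2.53, 2.70, 1.37 and 1.13% of all cells used. Centrocytes made up 10.2, 6.31, 24.5 and 24.3%, low-gene Fcer2a-positive cells 9.84, 12.9, 5.95 and 1.77%, and T cells 0% in each. Other unannotated cells made up 34.1, 42.0, 40.4 and 47.6% of the neighbours and 50.2, 49.7, 37.9 and 33.6% of the cells used, and so were fewer among the neighbours than in the library in WT and C and more in K and CK. The size of each class in its library moves with these shares, and its part was not tested.

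Along the deposited pseudotime, ranked within each library from 0 to 100, the median prememory cell was at 92.7, 92.5, 96.9 and 96.2 and the median centrocyte at 72.2, 76.0, 83.7 and 84.5. The study describes a trajectory anchored at centroblasts that finishes at prememory cells, and it was built on these same cells. Their late place is thus no independent finding. Of the prememory cells, 90.3, 87.1, 87.1 and 83.5% lay after the centrocyte median.

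The share of prememory cells depended on the denominator. They were 11.8, 11.02, 3.6 and 2.91% of annotated GC B cells, with intervals from 10.1 to 13.8%, 9.70 to 12.5%, 2.92 to 4.39% and 2.41 to 3.48%. Relative to centrocytes alone K and CK were again lower than WT and C, with prememory cells at 27.5, 30.4, 13.2 and 10.9% of the 2 classes together. Set against low-gene Fcer2a-positive cells they made up 35.9, 33.4, 41.3 and 54.2% of both, with intervals from 31.2 to 40.8%, 29.8 to 37.1%, 34.8 to 48.1% and 47.3 to 61.1%. The K and CK libraries were thus low by the first measures, while by the last CK was above WT and C and the interval of K overlapped those of both. In K and CK the low-gene Fcer2a-positive cells numbered 132 and 97, against 259 in WT and 449 in C.

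**Figure D5:**
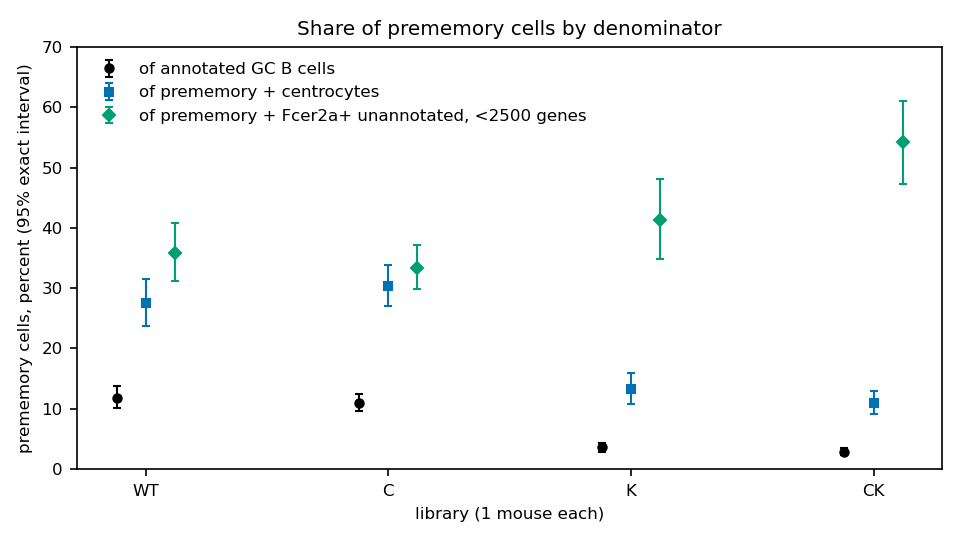
Percent of prememory cells in each library with 3 denominators and 95% exact binomial intervals, 1 mouse per library. As a share of annotated GC B cells K (3.6%) and CK (2.91%) lie below WT (11.8%) and C (11.02%), while as a share of prememory plus low-gene Fcer2a-positive cells CK (54.2%) lies above the others.

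The choice of comparison cells touches this result, since Fcer2a itself was lower in 2 libraries. In prememory cells Fcer2a was at 346, 353, 220 and 191 CPM, with log2 ratios over WT of 0.03, -0.66 and -0.86 in the other libraries, the last 2 with upper bounds of -0.24 and -0.40. In centrocytes it was at 246, 278, 137 and 108 CPM. At least 2 Fcer2a UMIs were found in 30.3, 26.7, 16.1 and 9.57% of prememory cells. The K and CK libraries were low in both annotated classes. The part of Fcer2a level and cell depth in the share was not tested.

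Within prememory cells, 108 of 5844 genes (1.85%) were at least 2-fold higher in C than in WT and 113 (1.93%) lower. K had 65 of 4732 (1.37%) higher and 583 (12.3%) lower, and CK had 77 of 4796 (1.61%) higher and 228 (4.75%) lower. These counts rest on 1 library each. The K library leaned the same way in other classes. It had 718 lower and 94 higher of 8302 genes in centrocytes, and 705 and 100 of 5600 in low-gene Fcer2a-positive cells. CK had 127 lower and 150 higher of 8530 genes in centrocytes, without that lean, and 368 and 156 of 5331 in low-gene Fcer2a-positive cells. The median over all genes was 0.00, -0.16 and -0.01 on the log2 scale for C, K and CK over WT. The memory and resting B list had medians of -0.12, -0.36 and -0.22, the BCR signalling list -0.12, -0.49 and -0.13 and the MHC class II list -0.09, 0.01 and -0.12. In centrocytes the memory and resting B list stood at 0.10, -0.51 and -0.11 and BCR signalling at -0.03, -0.33 and -0.13. In K both lists were thus below the median of all genes in both classes.

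Several genes that separated prememory cells from centrocytes did not differ detectably from WT. Klf2 differed from WT prememory cells by log2 ratios of -0.24, -0.10 and -0.22 in the other libraries. Cd38 differed by 0.12, -0.23 and -0.22 and Bcl2 by -0.13, -0.36 and -0.30, and the interval held 0 for all 3 genes in each library. Cd55, a complement regulator, was the memory list member with the largest difference that the interval separated from 0, at 92.8, 76.0, 16.9 and 26.3 CPM, a log2 ratio of -2.46 (-4.14 to -1.14) in K and -1.82 (-3.21 to -0.67) in CK. In low-gene Fcer2a-positive cells Cd55 was at 376, 369, 141 and 224 CPM, so it was lower in the same 2 libraries there.

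By the rule of at least 100 CPM in 1 library and 50 UMIs over both, the lowest genes of CK over WT were Gm47283, Sept6, Slc25a11, Myo1e and Zbtb8os and the highest Igha, Noc3l, Rrp1b, Pgp and Gtf2b. Gm47283 was at 284, 74.5, 108 and 63.8 CPM, and was also lower in centrocytes of all 3, by log2 ratios of -1.74, -1.32 and -2.18. Igha rests on single cells: its WT level of 26.5 CPM stands beside 139 CPM for CK, but 29 of its 37 UMIs in CK came from 1 cell. Rrp1b, a nucleolar protein, was at 53.0, 88.2, 67.6 and 131 CPM, with a log2 ratio of 1.31 (0.55 to 2.08) in CK, and in centrocytes of CK it was 0.04 (-0.57 to 0.67). The difference between the classes was not tested.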

How the data were processed

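For each of 4 libraries the authors deposited UMI counts of 31053 genes, aligned to mm10 with Cell Ranger (3.0 per the labels, 3.0.2 per the file headers). Their deposited cell table adds UMI totals, mitochondrial percent values, gene set scores from Seurat 4.0, a pseudotime and the subtype names.

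Here counts were summed per library and class and scaled to CPM. A gene was tested with at least 20 UMIs over both classes in every library and called at a 2-fold difference in all 4 libraries. A class at 0 was set at 3 counts. Intervals were exact binomial, Poisson or conditional binomial ones at 95%, and PCR duplicates had been removed by UMIs. For shares of cells with GC gene UMIs or with a single gene found, cells were thinned to 1000 UMIs where so stated. Shares by isotype, by light chain and by at least 2 Fcer2a UMIs used all UMIs of a cell and were not matched for depth. With 1 mouse per genotype no p-value was computed. Named genes were the list genes, the 10 highest and 10 lowest called genes by the ratio nearest to 0 with at least 100 CPM in a class, the kept GC genes by level, and 5 genes each way for CK over WT (at least 100 CPM, 50 UMIs), without immunoglobulin variable, mitochondrial and ribosomal protein genes. For 15 genes higher than both classes the rule came after the data were seen. The members, gene lists and tests were chosen with earlier results of these data known. The calling steps were tested on simulated data. Alternatives were the scaling, the UMI minimum, Scrublet calls (scanpy 1.11.5), thinning, immunoglobulin genes, a 5% mitochondrial limit, the Fcer2a minimum and leaving out each library. Scripts used scikit-learn 1.9.0, scipy 1.17.1, matplotlib 3.10.9, pandas 2.3.3 and numpy 2.4.6. Gene positions are those of GENCODE on GRCm38, the assembly that mm10 names, matched by gene identifier. Promoter sequences are from RefSeq, without chromosome 18. Some genes of the fixed lists are not reported here.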

Additional observations from a re-analysis of the deposited data

Results flagged for a closer look

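The genes named here went one way in 1 library and the other way in another, with both intervals off 0, in the ratio of prememory cells over centrocytes or over low-gene Fcer2a-positive cells; the difference between libraries was not tested, and 324 list and named genes were looked at. Over centrocytes, Bzw2 had log2 ratios of 0.48 in C and -0.53 in K, Tpi1 of 0.43 in C and -0.75 in K, Dtx1 of 0.60 in K and -1.09 in CK, and Cr2, the complement receptor CD21, of -0.45 in WT, 0.40 in C and -0.78 in K. Over low-gene Fcer2a-positive cells, Foxp1 had -0.38 in C, -0.39 in K and 0.37 in CK, Igha -1.87 in K and 1.66 in CK (29 of the 37 UMIs in CK from 1 cell), Iglc2 -0.28 in WT, -0.37 in C and 0.44 in K (319 of 1075 UMIs in K from 1 cell), and Ube2c -1.73 in C and 1.69 in K.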

How the results depend on the processing

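Of the main results recomputed under the alternatives, 179 moved by less than the limit set and 54 moved by more. Against Fcer2a-positive cells below 2500 genes, 102 genes were higher and 50 lower in place of 37 and 118, and GC genes numbered 117 in place of 30; Mef2b then had a mean log2 ratio of 0.046 over these cells and so changed sign. With at least 1 Fcer2a UMI the calls were 69 higher and 224 lower, and with at least 3 they were 20 and 42, with 14 GC genes of which 0% were kept. With both settings, chosen after seeing the data, at least 1 UMI gave 138 higher and 160 GC genes, and at least 3 gave 77 higher, 19 lower and 76 GC genes. A minimum of 1 UMI gave 974 genes higher than in centrocytes, and 164 higher and 206 lower than in Fcer2a-positive cells. Thinning to 1000 UMIs gave 93 higher and 110 lower than in centrocytes, 16 lower than in Fcer2a-positive cells and 0% of GC genes kept. A mitochondrial limit of 5% gave 127 and 128 against centrocytes, 19 higher than Fcer2a-positive cells and 13 GC genes, of which 23.1% were lost.

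A call had to hold in every library used, so counts of calls could not fall when a library was left out, and their rise shows nothing on stability. Leaving out each library gave 38 to 49 GC genes, 41 to 69 genes higher and 128 to 223 lower than in Fcer2a-positive cells, with 49 without WT and 69 and 223 without CK, and 260 to 341 higher and 242 to 287 lower than in centrocytes. The 57 genes higher than both classes were 26 when thinned, 29 at 5% mitochondrial UMIs, 95 at 1 UMI and 61 to 100 with a library left out (100 without K).

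IgG-led shares at 5% mitochondrial UMIs were 7.14% for WT and 0% for K and CK, and K was also 0% with at least 5 constant region UMIs or after thinning; each rests on at most 3 cells. The share with GC gene UMIs was 0% for WT at 5% mitochondrial UMIs, 19.3, 16, 20.4 and 13.9% when not thinned and 12.5, 11.7, 18.4 and 12.5% when thinned to 2000 UMIs, where T cells had 4.97, 4.17, 3.90 and 5.88%. Low-gene Fcer2a-positive cells had 5.10, 11.9, 12.7 and 17.9% at that depth. Genotype medians over WT were small and moved: C had 0.00604 over all genes at 5 UMIs, and when thinned 0.00704 over all genes, 0.12 for memory and resting B, 0.11 for BCR signalling and -0.084 for glycolysis. K had -0.037 over all genes when thinned, 0.17 for MHC class II with median-ratio scaling, and 0.087 with that scaling and 0.079 when thinned for light zone activation. CK had 0.012 over all genes and -0.088 for light zone activation when thinned. The cause was not tested. Classes were compared within each library, and no test was run. With 1 mouse per genotype no genotype test was possible.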

Other observations

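Interferon-stimulated genes were in part higher in prememory cells than in centrocytes. Of 8 tested members Bst2 and Ifi27l2a were called higher and 0 lower, with a list median of 0.44 on the log2 scale. Over all genes tested 3.43% were higher and 3.08% lower, with a median of 0.03. By library the median was 1.04, 0.35, 0.38 and -0.19 in WT, C, K and CK. Bst2, the tetherin gene, was at 81.4, 76.0, 77.7 and 75.1 CPM in WT, C, K and CK, against 16.9, 22.3, 20.8 and 19.9 CPM in centrocytes and 57.8, 68.7, 88.2 and 63.3 CPM in low-gene Fcer2a-positive cells. Isg15 was at 53.0, 56.3, 30.4 and 15.01 CPM and did not keep 1 direction against centrocytes. Of 12 tested glycolysis genes 0 were called against centrocytes, and Pgam1 and Ldha were called higher than in low-gene Fcer2a-positive cells. Ldha, which encodes lactate dehydrogenase A, was at 657, 665, 720 and 672 CPM in prememory cells, 453, 457, 594 and 514 CPM in centrocytes and 202, 279, 253 and 234 CPM in low-gene Fcer2a-positive cells, while Gapdh was at 1026, 1080, 1240 and 1081 CPM against 2061, 2014, 2365 and 2057 CPM in centrocytes.

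Of 8 tested genes of a marginal zone B list Plac8 was higher and Mzb1 lower than in centrocytes, with a median log2 ratio of -0.33. Against low-gene Fcer2a-positive cells 0 of 4 tested members were higher and 0 lower, with a median of -0.17. Among the sparse ones, chosen after their values were seen, Cd1d1 was at 18.9, 38.0, 27.0 and 30.03 CPM against 3.28, 6.37, 2.80 and 4.43 CPM, and Fcrl5 at 20.8, 31.9, 16.9 and 18.8 CPM against 1.64, 4.25, 3.596 and 3.32 CPM. The age-associated B-cell genes Tbx21 and Itgax had 0 UMIs in prememory cells of all libraries. The share of unspliced UMIs in the deposited table had medians of 31.3, 30.1, 25.7 and 29.1% in prememory cells and 32.8, 33.1, 25.8 and 32.1% in centrocytes.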
